A study of Rattus norvegicus with 2 samples.

Results

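The genes described here are the mitochondrial carriers of the Slc25 family in rat myocardium, taken as every row of the protein-coding tables whose gene name starts with Slc25a. There were 39 such genes among 13706 with a row in either table. The KXH library listed 38 of them and the water library 39, and a gene without a row in 1 library was taken as 0 reads there. The myocardium came from spontaneously hypertensive rats, an inbred strain with high blood pressure, that were dosed for 12 weeks by the intragastric route, one group with KXH (the preparation KXF at its high dose, 9.6 g/kg) and one with distilled water. Each group was 1 library of total RNA, and the labels state neither age nor how many animals a library holds. Both groups were hypertensive, so no normotensive heart is part of the comparison.

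Mitochondrial carriers are small proteins with 6 membrane-spanning helices that pass nucleotides, phosphate, carboxylates, amino acids, cofactors and metal ions across the inner mitochondrial membrane. In the heart the ADP/ATP carrier brings ADP in and lets ATP out, the phosphate carrier supplies the other substrate of ATP synthase, and the carnitine/acylcarnitine carrier admits fatty acids for oxidation. The oxoglutarate carrier takes part in the malate-aspartate shuttle, which moves reducing equivalents into mitochondria.

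The protein-coding table held 14.1 M reads for the KXH library, against 15.1 M for the water library, with M standing for 1000000. RPKM, the level used below, is reads per kilobase of the listed gene length per 1000000 reads of the table. With 1 library per group no test between the treatments was possible. Ratios are KXH over water, and the range in parentheses is a 95% exact interval for counting error. The words "higher" and "lower" refer to this pair of libraries. The 8 cardiomyocyte markers examined summed to 48465 RPKM in the KXH library and 45694 RPKM in the water library. These were the highest sums of the cell type lists examined, ahead of erythroid markers at 2266 RPKM with KXH and 3348 RPKM with water. By level, the libraries matched their tissue label. The fat cell markers Plin1 and Cidec had 1 read each with KXH and 0 reads with water, and Adipoq had no row. Of the other fat cell markers, Cfd had 163 reads with KXH and 128 with water (ratio 1.37, 1.08 to 1.74), Lipe had 1462 with KXH and 1632 with water, and Lep had 5 with KXH and 2 with water.

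The carrier family was almost level between the libraries. Of the 33 members with at least 100 reads in both libraries together, 1 was at least 1.2-fold higher in the KXH library and 1 at least 1.2-fold lower. Over all 9805 genes past the same filter, 6.43% were higher by that measure and 10.4% lower. The higher carrier was Slc25a25, a calcium-regulated carrier that exchanges ATP-Mg for phosphate, and the lower one was Slc25a37, the iron importer mitoferrin-1. At 1.5-fold there were 0 higher carriers (0.704% of all genes) and 1 lower, again Slc25a37 (1.51% of all genes). At 1.1-fold there were 3 higher (17.6% of all genes) and 6 lower (23.8% of all genes). The median log2 ratio of the 33 members was 0.00, against -0.02 over all genes past the filter. Of the members, 24 lay within 1.1-fold of the water level, which is 72.7%, against 58.6% of all genes past the filter. The members' log2 ratios lay at a median distance of 0.067 from 0, and those of all genes at 0.11. The counting interval lay above 1 for 2 members (11.5% of all genes) and below 1 for 3 members (16.8% of all genes).

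**Figure D1:**
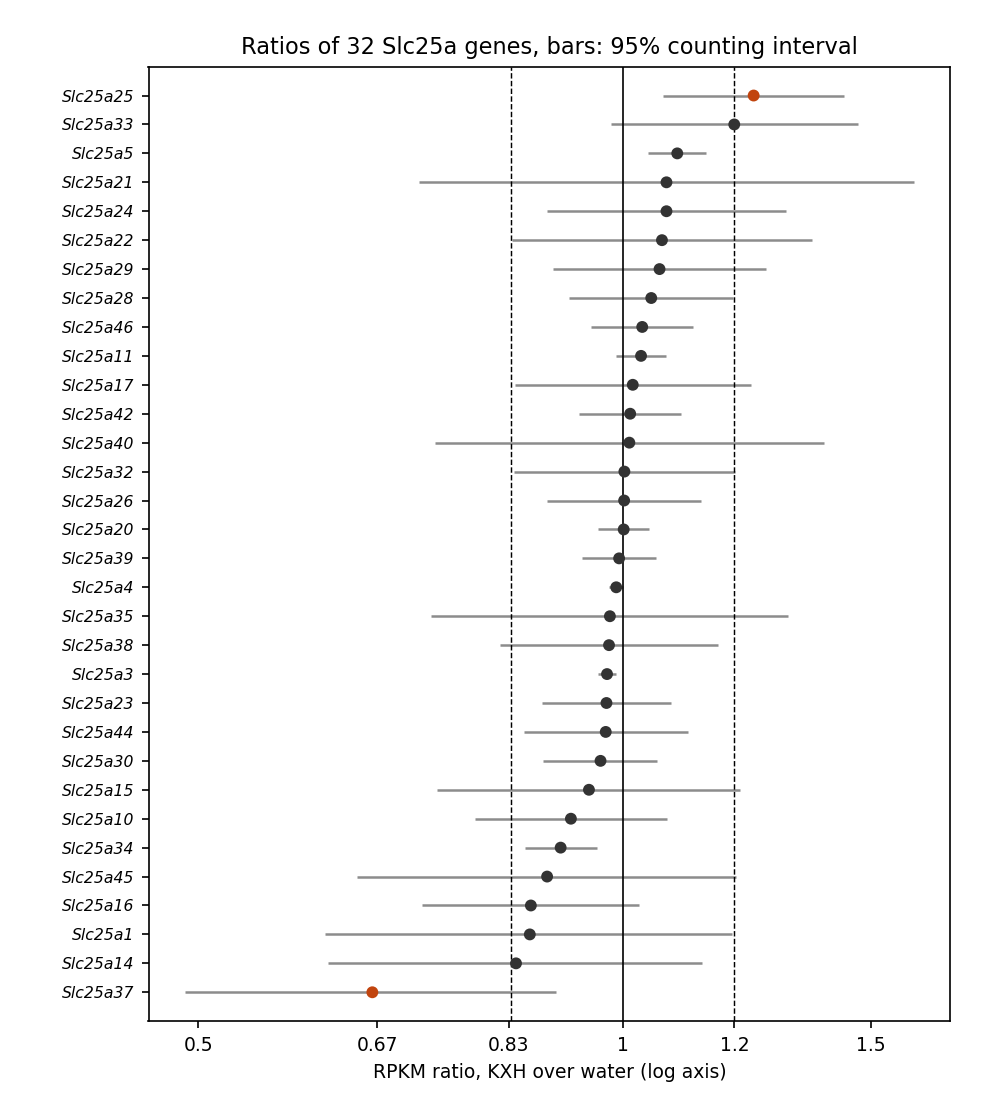
RPKM ratio of KXH over water for 32 Slc25a genes with at least 100 reads in sum, on a log axis. Points are ratios, bars are 95% exact intervals for counting error, dashed lines mark 1.2-fold in each direction, and the 2 genes past them, Slc25a25 and Slc25a37, are in orange.

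How far a ratio strays depends on depth. Among all genes with 100 or more but fewer than 500 reads in sum, 13% were past 1.2-fold on the higher side and 21.1% on the lower side, and of the 13 carriers in that range 0 were higher and 1 was lower. Among genes with 500 or more but fewer than 5000 reads these shares were 3.56% and 5.97%, and of 15 carriers 1 was higher and 0 were lower. Among genes with 5000 reads or more they were 2.03% and 1.82%, and of the 5 carriers there, none was past 1.2-fold. Closest inside the 1.2-fold rule were Slc25a25, at a ratio of 1.24, and Slc25a37, at 0.664. Closest outside were Slc25a33, whose ratio of 1.2 lay just short of the limit on the higher side, and Slc25a14 at 0.840 and Slc25a1 at 0.859 on the lower side.

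**Figure D2:**
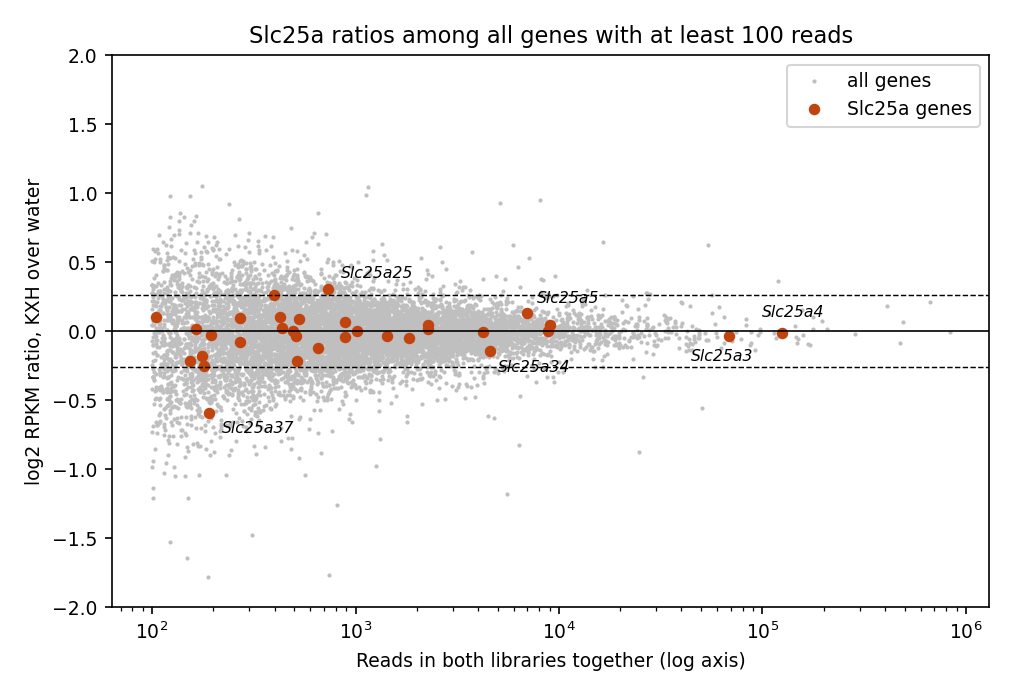
log2 RPKM ratio of KXH over water against the reads of both libraries together (log axis), with Slc25a genes in orange on all other genes in grey and dashed lines at 1.2-fold. The carriers with the most reads, Slc25a4 and Slc25a3, lie beside 0, Slc25a25 lies above the upper line and Slc25a37 below the lower one. The axis leaves out 2 genes with larger ratios and those with 0 reads in 1 library.

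The ADP/ATP and phosphate carriers made up most of the family's transcripts. Slc25a rows together took 117416 reads in the KXH library, 0.835% of its protein-coding reads (0.83 to 0.84), and 127465 in the water library, 0.844% (0.840 to 0.849). Slc25a4 and Slc25a3 alone held 78.8% of the family's reads with KXH and 79.2% with water. Slc25a4, the ADP/ATP carrier of heart and muscle, had 60084 reads and 3313 RPKM in the KXH library, against 65219 reads and 3348 RPKM in the water library. By RPKM it was the 12th most abundant gene with KXH and the 13th with water. Its ratio was 0.989 (0.979 to 1.00), an interval that includes 1. The ratio was above 1 with trimmed-mean scaling or median centring and below 1 with totals without the 50 genes with the most reads. With the trend of ratios on gene length removed, its log2 ratio went from -0.02 to -0.04, below that interval. Slc25a3, the phosphate carrier, had 32441 reads and 1708 RPKM with KXH, against 35748 reads and 1752 RPKM with water. That is a ratio of 0.975 (0.960 to 0.989), a small difference whose interval lay below 1. Its log2 ratio was -0.04, and with trimmed-mean scaling or median centring -0.02, a shift that takes the upper bound of the interval past 1. It was -0.03 with totals without the 50 genes with the most reads, and -0.06 with the trend on gene length removed. The level of Slc25a4 per length was 1.94 times that of Slc25a3 with KXH and 1.91 times with water.

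Slc25a5, the ADP/ATP carrier of many non-muscle and dividing cells, differed a little from its muscle partner. It had 3494 reads and 207 RPKM in the KXH library, against 3433 reads and 189 RPKM in the water library, a ratio of 1.09 (1.04 to 1.15). Of the reads of Slc25a4 and Slc25a5 together, Slc25a5 held 5.5% (5.32 to 5.68) with KXH and 5.0% (4.84 to 5.17) with water. The intervals of these shares did not overlap. Markers of cell types other than the cardiomyocyte went both ways beside it. Fibroblast markers had a median log2 ratio of 0.12, with 6 of 7 ratios above 1 (45.1% of all genes past the filter). They summed to 714 RPKM with KXH and 630 RPKM with water. Endothelial markers had a median of -0.17, with 7 of 7 ratios below 1 (54.9% of all genes). They summed to 406 RPKM with KXH and 463 RPKM with water. All 5 smooth muscle and pericyte genes past the filter had ratios below 1 (54.9% of all genes). Their median log2 ratio was -0.44, and the whole list summed to 259 RPKM with KXH and 303 RPKM with water. Macrophage markers summed to 52.7 RPKM with KXH and 57.6 RPKM with water, and lymphocyte markers to 1.63 RPKM with KXH and 3.77 RPKM with water. Their part in the Slc25a5 ratio was not tested, and in bulk tissue a change in the number of cells of a type and in RNA per cell cannot be told apart. RefSeq names 9 pseudogenes of Slc25a5 and 1 of Slc25a4, and how reads shared with them were counted is not given in the sources used here.

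The start regions of the pair are shown because these genes encode the same transport activity at levels far apart. They are the 250 bases before the RefSeq start of each gene in assembly GRCr8, on the plus strand, at chr16:52805271-52805520 for Slc25a4 and chrX:120897366-120897615 for Slc25a5. Capitals mark TATAA, the core of a TATA box, and AGATAA, the core recognised by GATA factors.
Slc25a4: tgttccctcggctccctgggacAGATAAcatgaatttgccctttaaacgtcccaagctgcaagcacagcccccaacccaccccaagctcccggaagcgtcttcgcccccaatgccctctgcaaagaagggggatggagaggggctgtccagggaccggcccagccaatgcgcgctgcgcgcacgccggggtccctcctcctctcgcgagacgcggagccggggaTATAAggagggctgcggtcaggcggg
Slc25a5: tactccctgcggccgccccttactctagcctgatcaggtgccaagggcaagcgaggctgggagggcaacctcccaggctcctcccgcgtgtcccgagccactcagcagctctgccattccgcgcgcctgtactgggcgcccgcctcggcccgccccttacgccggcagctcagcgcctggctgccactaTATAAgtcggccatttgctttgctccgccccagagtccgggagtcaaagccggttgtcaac
TATAA on either strand was in the windows of 3 of the 33 members that the RefSeq table covers, which is 9.09%, against 24.0% of all 33469 windows. Besides Slc25a4, where it began 26 bases before the start, and Slc25a5, where it began 61 bases before it, Slc25a38 held it. AGATAA on either strand was in 2 members' windows (6.06%), Slc25a4 and Slc25a41, against 10.3% of all windows.

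**Figure D3:**
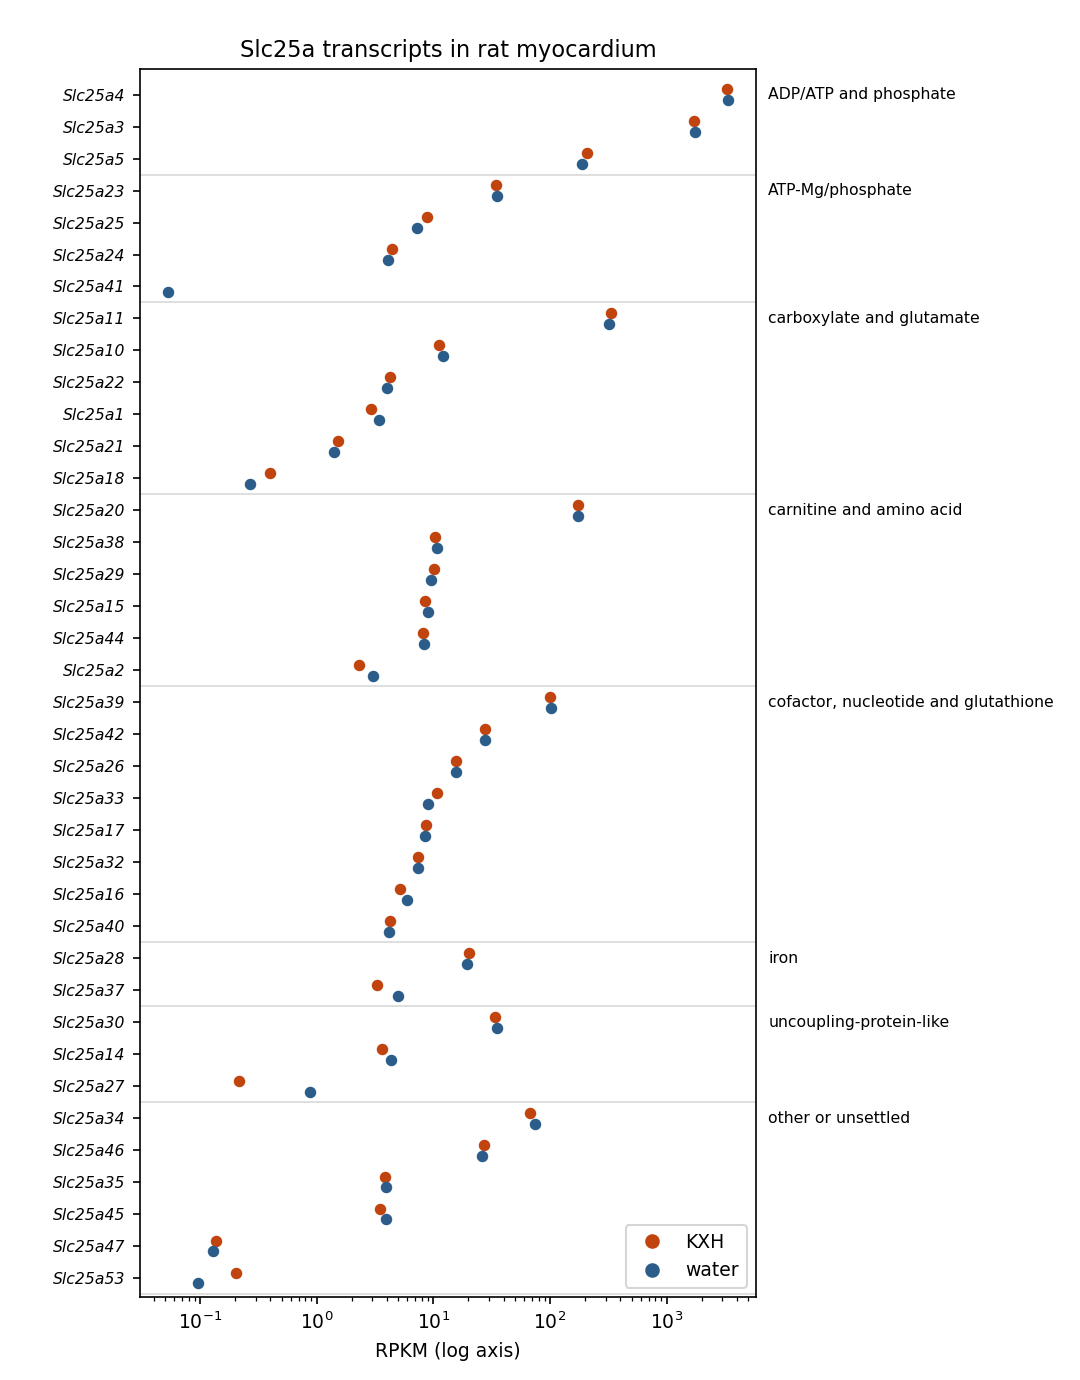
RPKM of 38 Slc25a genes by transported substrate, on a log axis, with the KXH library (orange) drawn above the water library (blue). Slc25a41 had 0 reads in the KXH library and has no orange point. Within a class the levels spread far more than the libraries differ, except for genes of few reads such as Slc25a27.

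Calcium-regulated members of the ATP-Mg/phosphate subgroup adjust the adenine nucleotide pool of mitochondria. Slc25a23, the most abundant of them here, had 680 reads and 34.5 RPKM in the KXH library, against 750 reads and 35.4 RPKM in the water library, with a ratio of 0.974 (0.877 to 1.08). Slc25a25 had 392 reads and 8.89 RPKM with KXH, against 340 reads and 7.18 RPKM with water, which is 1.24-fold higher (1.07 to 1.44). Slc25a24 had 213 reads in each library, at 4.41 RPKM with KXH and 4.11 RPKM with water. Slc25a41 had 0 reads with KXH and 1 read with water, too few for a ratio. Only Slc25a25 of this subgroup had an interval without 1, and its RefSeq span overlaps the gene Naif1, whose reads cannot be told apart where strand is not used.

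The start regions of Slc25a25 and of Slc25a33, a pyrimidine nucleotide carrier, are shown because they had the highest ratios of the members past the filter and share a sequence element. Slc25a33 had 210 reads and 10.8 RPKM in the KXH library, against 188 reads and 8.99 RPKM in the water library, a ratio of 1.2 (0.981 to 1.47) with an interval that includes 1. Both windows lie on the minus strand of GRCr8, at chr3:36116582-36116831 and chr5:165502974-165503223. Capitals mark TGACGTCA, the palindromic cAMP response element bound by CREB-type factors.
Slc25a25: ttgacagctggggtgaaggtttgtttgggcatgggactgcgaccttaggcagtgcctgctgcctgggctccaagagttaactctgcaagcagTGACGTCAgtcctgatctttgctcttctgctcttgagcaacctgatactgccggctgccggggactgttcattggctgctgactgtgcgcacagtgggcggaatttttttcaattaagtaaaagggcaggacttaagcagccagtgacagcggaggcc
Slc25a33: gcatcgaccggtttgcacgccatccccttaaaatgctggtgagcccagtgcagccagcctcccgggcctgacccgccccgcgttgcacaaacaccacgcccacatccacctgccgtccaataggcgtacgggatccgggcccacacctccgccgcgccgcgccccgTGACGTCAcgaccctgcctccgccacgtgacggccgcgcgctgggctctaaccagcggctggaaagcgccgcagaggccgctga
The element began 158 bases before the start of Slc25a25 and 84 bases before that of Slc25a33. Of the 33 members with a window these were the 2 that held it, a share of 6.06%, against 1.59% of all 33469 windows. The motifs were chosen after the ratios and the windows had been seen, so the share of this element cannot be read as an enrichment. A match is a description of letters, not of a bound site. Of the other elements searched on both strands, AAGGTCA, the core bound by estrogen-related receptors, was in the window of Slc25a34 alone (3.03% of members and 3.99% of all windows). The nuclear respiratory factor 1 motif searched was in none of the members' windows and in 3.75% of all windows.

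Carriers of carboxylates and glutamate link the Krebs cycle with the cytosol. Slc25a11, the oxoglutarate/malate carrier, had 4410 reads and 332 RPKM in the KXH library, against 4597 reads and 322 RPKM in the water library, with a ratio of 1.03 (0.988 to 1.07). The malate and succinate exchanger Slc25a10 had 302 reads and 11.2 RPKM with KXH, against 353 reads and 12.2 RPKM with water (ratio 0.919, 0.785 to 1.07). The citrate carrier Slc25a1, which exports citrate for lipid synthesis, had 68 reads and 2.94 RPKM with KXH, against 85 reads and 3.43 RPKM with water (ratio 0.859, 0.615 to 1.2). None of the 5 members past the filter had an interval without 1, and 71.7% of all genes past it had an interval that includes 1. Slc25a22, a glutamate carrier, had 135 reads and 4.26 RPKM with KXH, against 136 reads and 4.0 RPKM with water. Slc25a21, which carries oxoadipate, had 52 reads in each library, at 1.52 RPKM with KXH and 1.41 RPKM with water. The other glutamate carrier, Slc25a18, was scarce, with 11 reads with KXH and 8 reads with water.

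Carriers of carnitine and amino acids that passed the filter had ratios from 0.946 to 1.06. Slc25a20, the carnitine/acylcarnitine carrier, had 4270 reads and 173.2 RPKM in the KXH library, against 4579 reads and 172.9 RPKM in the water library, and its ratio was 1.00 (0.960 to 1.04). Slc25a44, a carrier of branched-chain amino acids, had 422 reads and 8.16 RPKM with KXH, against 466 reads and 8.39 RPKM with water. The glycine carrier Slc25a38, which supports haem synthesis, had 244 reads and 10.4 RPKM with KXH, against 268 reads and 10.7 RPKM with water. These 3 ratios lay between 0.973 and 1.00. Slc25a29, a carrier of basic amino acids, had 263 reads and 10.1 RPKM with KXH, against 266 reads and 9.53 RPKM with water. The ornithine carrier Slc25a15 had 126 reads and 8.47 RPKM with KXH, against 143 reads and 8.95 RPKM with water. All 5 intervals included 1, as did those of 71.7% of all genes past the filter. The related ornithine carrier Slc25a2 was under the filter, with 39 reads with KXH and 55 reads with water (ratio 0.762, 0.492 to 1.17).

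The largest subgroup carries cofactors, nucleotides and glutathione. All 9 of its members passed the filter with intervals that include 1 (71.7% of all genes). Slc25a39, a glutathione carrier, had 2040 reads and 100.4 RPKM in the KXH library, against 2204 reads and 100.9 RPKM in the water library (ratio 0.994, 0.936 to 1.06). RefSeq names 8 pseudogenes of it, more than of any other carrier except Slc25a5. Its relative Slc25a40 had 80 reads and 4.24 RPKM with KXH, against 85 reads and 4.19 RPKM with water, and held 3.77% of the pair's reads with KXH and 3.71% with water. The balance of the glutathione carriers was thus nearly the same in both libraries.

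Carriers of coenzymes and vitamins followed the same pattern. Slc25a42, which imports coenzyme A, had 1097 reads and 27.8 RPKM in the KXH library, against 1164 reads and 27.5 RPKM in the water library. Slc25a16, linked to coenzyme A supply, had 230 reads and 5.16 RPKM with KXH, against 287 reads and 5.99 RPKM with water, and had the lowest ratio of the subgroup, 0.861 (0.721 to 1.03). Both intervals included 1. Slc25a26, which imports the methyl donor S-adenosylmethionine, had 489 reads and 15.6 RPKM with KXH, against 524 reads and 15.6 RPKM with water. Slc25a32, a carrier of folate and flavin, had 239 reads and 7.35 RPKM with KXH, against 256 reads and 7.33 RPKM with water. Slc25a17, which resides in peroxisomes, had 212 reads and 8.62 RPKM with KXH, against 224 reads and 8.48 RPKM with water. The ratios of these last carriers lay between 1.00 and 1.02.

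Of the mitoferrins, which bring iron into mitochondria for haem and iron-sulphur clusters, only Slc25a37 was past 1.2-fold. Slc25a37, the mitoferrin of developing red cells, had 73 reads and 3.30 RPKM in the KXH library, against 118 reads and 4.96 RPKM in the water library. It was 1.5-fold lower (1.11 to 2.04) on few reads. Slc25a28, the widely expressed mitoferrin-2, had 437 reads and 20.3 RPKM with KXH, against 448 reads and 19.4 RPKM with water (ratio 1.05, 0.916 to 1.2). Slc25a37 held 14.3% of the pair's reads with KXH (11.4 to 17.7) and 20.8% with water (17.6 to 24.4), and these intervals just meet.

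Erythroid transcripts were lower beside Slc25a37. Of 9 erythroid names examined 7 had rows, and the summed level was 2266 RPKM in the KXH library and 3348 RPKM in the water library, a ratio of 0.677. All 4 with at least 100 reads in sum were at least 1.2-fold lower, against 10.4% of all genes and 21.1% of those with fewer than 500 reads. LOC287167 among them passed the filter on water reads alone, so it could only be called lower. Hbb, Alas2 and Slc4a1 had reads in both libraries. Under the filter, the haemoglobin chaperone Ahsp had 24 reads with KXH and 26 with water, a ratio of 0.991. The globin Hbb had 19471 reads with KXH and 30736 with water, and the erythroid haem synthesis enzyme Alas2 had 662 reads with KXH and 1121 with water. The red cell anion exchanger Slc4a1 had 164 reads with KXH and 318 with water, and the globin LOC287167 had 0 reads with KXH and 101 with water. Hba-a2 had no row. The part of red cell RNA in the Slc25a37 ratio was not tested.

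The 2 carriers related to the uncoupling proteins that passed the filter had ratios below 1 (54.9% of all genes). The scarcest of this subgroup, under the filter, was also below 1 and alone had an interval without 1. Slc25a30, known from kidney, had 862 reads and 33.8 RPKM in the KXH library, against 960 reads and 35.1 RPKM in the water library (ratio 0.964, 0.879 to 1.06). Slc25a14, a brain-enriched relative, had 79 reads and 3.61 RPKM with KXH, against 101 reads and 4.30 RPKM with water (ratio 0.840, 0.618 to 1.14). For neither was a difference detectable at this depth. Slc25a27, the neuronal uncoupling protein 4, was under the filter with 8 reads with KXH and 35 reads with water, at 0.215 RPKM with KXH and 0.874 RPKM with water. That is 4.07-fold lower with a wide interval (1.86 to 10.2), the ratio farthest from 1 of all the carriers with over 3 reads in a library.

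Markers of nerve were examined for this reason, as a list of 10 added after the values were seen, of which 6 had rows. Their summed level was 7.75 RPKM in the KXH library and 9.31 RPKM in the water library, and single markers went both ways. The glial S100b had 8 reads with KXH and 30 with water. The neuronal Uchl1 had 51 reads with KXH and 22 with water, Dbh had 15 with KXH and 18 with water, and Stmn2 had 2 with KXH and 1 with water. Th, Chat and Snap25 had no row. The part of nerve in the Slc25a27 reads was not tested.

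The remaining members have other roles or an unsettled substrate. Slc25a34, an orphan carrier that was the seventh most abundant of the family here, had 2089 reads and 66.7 RPKM in the KXH library, against 2483 reads and 73.8 RPKM in the water library, 1.11-fold lower (1.04 to 1.17). Slc25a46, an outer membrane protein involved in mitochondrial shape, had 1114 reads and 27.2 RPKM with KXH, against 1159 reads and 26.3 RPKM with water (ratio 1.03, 0.95 to 1.12). Only the first of these had an interval without 1. Slc25a35 had 93 reads and 3.88 RPKM with KXH, against 102 reads and 3.96 RPKM with water. Slc25a45 had 79 reads and 3.49 RPKM with KXH, against 96 reads and 3.95 RPKM with water. Slc25a47, a carrier known from liver, had 3 reads in each library, and Slc25a53 had 2 reads with KXH and 1 with water, so neither was measurable at this depth.

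By level the order of carriers was the same at the top of the family and differed below it. The 12 most abundant members stood in the same order of RPKM in both libraries, from Slc25a4 through Slc25a3, Slc25a11, Slc25a5, Slc25a20, Slc25a39, Slc25a34, Slc25a23, Slc25a30, Slc25a42 and Slc25a46 to Slc25a28. Neighbours such as Slc25a23 and Slc25a30, at 34.5 and 33.8 RPKM with KXH and at 35.4 and 35.1 RPKM with water, were nearly level. From the place after these 12 the orders differed. Slc25a33 stood above Slc25a38 with KXH, at 10.8 and 10.4 RPKM, and below it with water, at 8.99 and 10.7 RPKM. Of the members past the filter, 16 were at 10 RPKM or more in both libraries and 15 under 10 RPKM in both. RefSeq holds 10 further Slc25a symbols in rat, that matched no row under those names. Slc25a51 had a row under its older name Mcart1, and the others, among them Slc25a12 and Slc25a13 of the malate-aspartate shuttle and Slc25a36, were not analysed here.

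Among relatives of the family that carry other names, Ucp2 and Ucp3 went opposite ways. Of 5 such genes past the filter, 1 was at least 1.2-fold lower (10.4% of all genes) and none at least 1.2-fold higher (6.43% of all genes). The uncoupling protein Ucp2 had 2893 reads and 129 RPKM in the KXH library, against 2629 reads and 109 RPKM in the water library, a ratio of 1.18 (1.12 to 1.25). Ucp3, the uncoupling protein of muscle, had 278 reads and 8.32 RPKM with KXH, against 422 reads and 11.8 RPKM with water, 1.41-fold lower (1.21 to 1.65). The brown fat protein Ucp1 had 1 read with KXH and 0 with water. Mtch2, an outer membrane insertase, had a ratio of 0.970 (0.924 to 1.02). Mcart1, an older name of the NAD carrier Slc25a51, had 100 reads with KXH and 117 with water, and its ratio was 0.918 (0.696 to 1.21).

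Genes that import carriers into the inner membrane leaned towards KXH. The median log2 ratio of this list was 0.10, and 12 of 13 past the filter had a ratio above 1, against 45.1% of all genes. None was past 1.2-fold (6.43% of all genes higher, 10.4% lower), and 3 intervals lay above 1 (11.5% of all genes). With the trend of ratios on gene length removed the median was 0.06. The receptor Tomm70a, which recognises carrier precursors, had 36.0 RPKM with KXH and 30.8 RPKM with water, a ratio of 1.17 (1.07 to 1.27). The translocase subunit Tomm7 had a ratio of 1.18 (1.05 to 1.33), and the small chaperone Timm10b one of 1.18 (0.942 to 1.47). Timm22, the channel that inserts carriers into the inner membrane, was the exception, with 13.7 RPKM with KXH and 15.7 RPKM with water and a ratio of 0.875 (0.757 to 1.01).

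Enzymes that work with the carriers were close to all genes in their median. Of 18 shuttle and exchange enzymes past the filter, 14 had a ratio below 1 (54.9% of all genes), 7 had an interval below 1 (16.8% of all genes) and 1 an interval above 1 (11.5% of all genes). None was past 1.2-fold, against 6.43% of all genes on the higher side and 10.4% on the lower. Their median log2 ratio was -0.03, against -0.02 over all genes, and -0.01 with trimmed-mean scaling or median centring. Ckmt2, the mitochondrial creatine kinase that receives ATP from the ADP/ATP carrier, had 2488 RPKM in the KXH library and 2741 RPKM in the water library, 1.1-fold lower (1.09 to 1.12). The liver-type carnitine transferase Cpt1a was 1.12-fold lower (1.05 to 1.2) and the brain-type creatine kinase Ckb 1.11-fold lower (1.04 to 1.17). Glud1, glutamate dehydrogenase, had a ratio of 1.12 (1.07 to 1.16).

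Other transporters of the mitochondrial membranes were close to level in their median log2 ratio, -0.02 over 19 genes. By interval, 4 lay below 1 (16.8% of all genes) and 1 above 1 (11.5% of all genes). The summed level of the 20 with rows was 2546 RPKM with KXH and 2636 RPKM with water. Past 1.2-fold were 2 higher genes (6.43% of all genes) and 1 lower one (10.4% of all genes). The sideroflexins Sfxn4 and Sfxn5 had ratios of 1.38 (1.04 to 1.84) and 1.29 (0.998 to 1.66). The sodium/calcium exchanger Slc8b1 was 1.25-fold lower (1.02 to 1.54). Micu3, a regulator of the calcium uniporter, had a ratio of 0.845 (0.609 to 1.17).

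**Figure D4:**
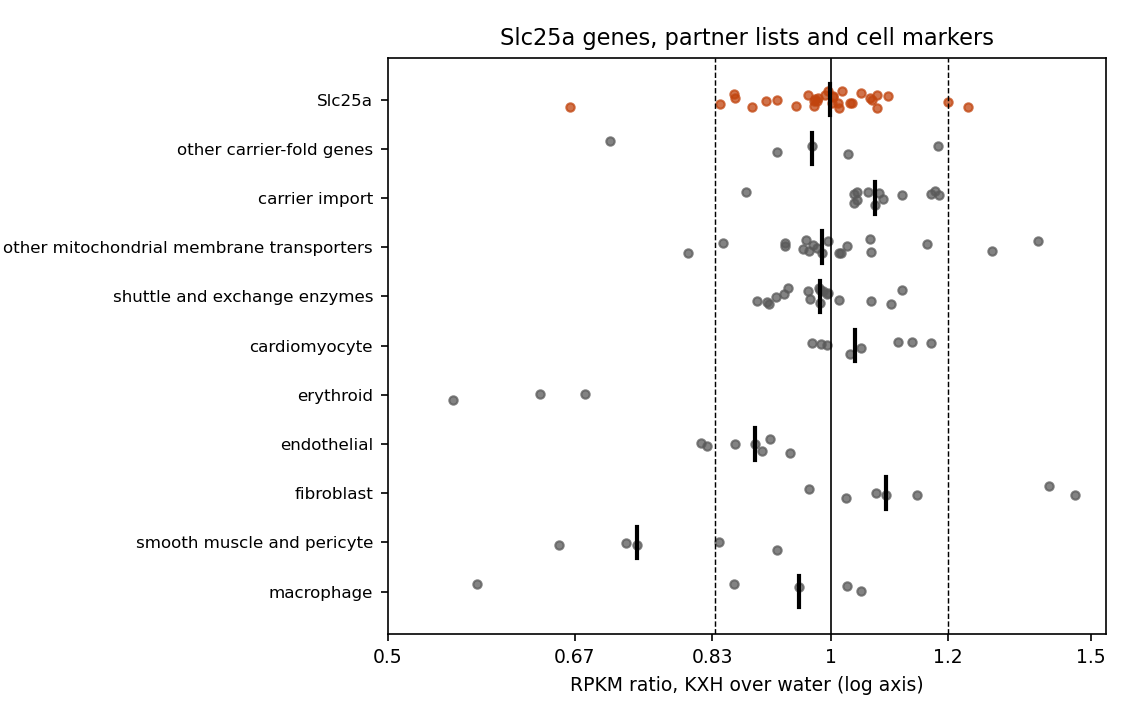
RPKM ratio of KXH over water (log axis) for each gene with at least 100 reads in sum and reads in both libraries, by list. Orange points are Slc25a genes, black bars are medians of lists with at least 5 drawn genes, and dashed lines mark 1.2-fold. Most Slc25a points lie between the dashed lines, as do the import genes and shuttle enzymes, whereas the erythroid genes lie to the left.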

How the data were processed

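Per the labels' protocols, frozen myocardium was extracted with Trizol and total RNA was made into libraries with an Illumina TruSeq RNA kit. The deposited protein-coding tables give a whole count of reads per gene, which the file headers call unique, a listed length and RPKM. Per the file headers and checked on every row to a relative 1e-09, the deposited RPKM is the count per kilobase per 1000000 reads of the table's own total. Bowtie 0.12.2 and rn6 are named in the submitters' processing notes. Not given in the sources used here: the annotation, the counting program and whether strand was used.

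Genes with at least 100 reads in sum were kept. The ratio of KXH over water is the RPKM ratio with nothing added. Its 95% interval is the exact Clopper-Pearson interval on the KXH share of a gene's reads. Since the reads carry no molecular identifiers, they are not independent molecules, and the intervals cover counting error only, and no ratio was given where both libraries had 3 reads or fewer. Members, lists and the 1.2-fold rule were chosen with earlier results of these data known. All members were to be named, of which 1 is not reported here by name and is not drawn as a carrier, though it counts in the totals, and of each list at most 4 genes farthest from a ratio of 1, plus defining markers, with some markers likewise not reported here. The nerve list and the motifs were added after values were seen. The planned shares within the pairs that need Slc25a12, Slc25a13 or Slc25a36 were not computed. Promoter windows and names come from RefSeq tables of GRCr8, which matched 33 and 39 of the 39 members. The steps were tested on simulated data. Intervals came from scipy 1.17.1, tables from pandas 2.3.3 with numpy 2.4.6 and figures from matplotlib 3.10.9, all under Python 3.11.15. Other scalings, pseudocounts, filters, thresholds and a correction for gene length were tried.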

Additional observations from a re-analysis of the deposited data

How the results depend on the processing

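With 1 library per group, no replicate could be left out and no paired analysis was possible because each group has 1 sample. The count of carriers at least 1.2-fold higher was 1 (6.43% of all genes). With Slc25a33 added it became 2 under trimmed-mean scaling (7.54% of all genes) or centring on the median of all genes (7.52%). It was also 2 with totals without the 50 genes with the most reads (7.03%). It was 3 at 1.1-fold (17.6% of all genes) and 0 at 1.5-fold (0.704%). With a filter of 1 read in each library it was 3, with Slc25a18 and Slc25a53 added on few reads. It was 0 among members whose RefSeq span overlaps no other protein-coding gene. That alternative was added after seeing the data and drops Slc25a25 by construction. The count of carriers at least 1.2-fold lower was 1 (10.4% of all genes). It became 2 with the length trend removed (Slc25a14 added, 10.3% of all genes) and 2 with a filter on a mean of 1 RPKM (Slc25a2 added). With 1 read in each library it was 3, with Slc25a2 and Slc25a27 added. It was 6 at 1.1-fold (23.8% of all genes) and 0 at 500 reads in sum, which drops Slc25a37. Shares of all genes were not computed for the other filters. The ratio of the family's share of reads was 0.989, and 1.02 when the 50 genes with the most reads, Slc25a4 and Slc25a3 among them, were left out of both the family and the total. The median log2 ratio of the members lay between -0.03 and 0.02 under the alternatives run, on either side of 0. Of 216 single-member values under other scalings, pseudocounts and the length correction, 211 stayed inside the counting interval, and none past 1.2-fold changed sign. The others belonged to Slc25a4 and Slc25a3, which have the most reads, and to Slc25a27. Each scaling shifted all log2 ratios by the same amount, 0.01 to 0.02, so values with wide intervals could not leave them. Depth limits the scarce members: the interval of Slc25a1 spans 0.615 to 1.2.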
